A study of Homo sapiens with 8 samples.

Results

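The genes described here are the STAT transcription factors STAT2, STAT3, STAT5A, STAT5B and STAT6, the kinase JAK2 and the inhibitors SOCS1, SOCS2 and SOCS3, which make up 9 of the 58336 genes in the count table. They were found by matching Ensembl gene identifiers to symbols, and all 9 had enough counts to be tested. They had been selected on levels and fold changes measured in these same libraries, so both are given as a description, without p-values. RNA-seq counts came from 8 libraries of SUM159, a human cell line long grown from a triple-negative breast tumour. Of these, 3 came from clone 1 of ITGB4-low cells that had been injected into mice by tail vein, with bleomycin, a drug that injures the lung, given into the airway. After lung dissociation and a night in culture, tumour cells were sorted by their red fluorescent tdTomato label, and these are called lung-recovered below. Another 3 libraries came from ITGB4-low clone 1 cells kept in dishes, and 2 from ITGB4-high cells kept in dishes. ITGB4 encodes the integrin beta 4 subunit, an adhesion receptor of epithelial cells.

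The ITGB4-low cells are 1 clone, and how the ITGB4-high cells were derived is not given in the sources used here. Cells from lungs without bleomycin are not analysed here, so the drug, growth in the mouse, dissociation and the sort cannot be told apart in the lung-recovered libraries. Library totals ran from 20.41 to 27.22 M counts. ITGB4 itself stood at 401.4, 375.5 and 406.9 CPM (counts per M counts of a library, scaled by edgeR's TMM factors) in the lung-recovered libraries, at 5.29, 7.46 and 9.13 CPM in the ITGB4-low libraries, and at 419.9 and 376.4 CPM in the ITGB4-high libraries. The lung-recovered cells, labelled as coming from the clone, thus had ITGB4 in the range of the ITGB4-high cells.

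Cytokines bind receptors that carry JAK kinases (JAK1, JAK2, JAK3 and TYK2) on their inner tails. The kinases phosphorylate STAT proteins, which pair up, enter the nucleus and bind DNA. STAT3 is best known downstream of the IL-6 family, STAT2 downstream of type I interferon, STAT6 downstream of IL-4 and IL-13, and STAT5A and STAT5B downstream of prolactin, growth hormone and several blood cell cytokines. SOCS proteins are made in response to STATs and shut the pathway off by blocking the kinases or the receptors or by marking them for breakdown. In the breast, STAT5A is known for its part in milk-producing differentiation, and STAT3 for its part in involution after weaning and in many tumours.

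STAT5A was the member with the largest difference in these libraries. It is present at a trace in both groups grown in dishes and is read plainly in the lung-recovered cells. The gene (ENSG00000126561) lies at chr17:42287547-42311943 on the plus strand of hg38. It had 13.6, 16.1 and 15.0 CPM in the lung-recovered libraries, against 0.243, 0.516 and 0.241 CPM in the ITGB4-low libraries and 0.792 and 0.390 CPM in the ITGB4-high libraries. All 3 lung-recovered libraries stood far above all 5 dish libraries, and the ITGB4-low and ITGB4-high libraries overlapped. The raw counts behind these levels were 324, 341 and 400 in the lung-recovered libraries, 5, 11 and 6 in the ITGB4-low libraries and 21 and 10 in the ITGB4-high libraries. The log2 fold change was 5.48 (SE 0.21) for lung-recovered over ITGB4-low, a 44.5-fold difference, and 4.64 (SE 0.22) for lung-recovered over ITGB4-high, a 24.9-fold difference. Without ITGB4-high replicate 1 that second log2 fold change was 5.23. By absolute log2 fold change STAT5A stood at rank 38 of the 15220 genes tested in lung-recovered against ITGB4-low, and at rank 144 in lung-recovered against ITGB4-high. For ITGB4-low against ITGB4-high the log2 fold change was -0.84 (SE 0.43), which rests on few counts and ran from -1.29 to -0.25 when single libraries were left out. In bulk RNA, a few cells with much STAT5A and many cells with little cannot be told apart.

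The start of STAT5A is shown first because this gene carries the largest difference, with the starts of SOCS1 and CISH beside it for comparison. SOCS1 is described further below, and CISH, an inhibitor of the same family, is a well-known target of STAT5. The stretches run 5′ to 3′ on each gene's own strand, from RefSeq promoter windows of GRCh38.p14. For STAT5A and SOCS1 they are the 250 bases before the outermost RefSeq transcript start, which for STAT5A (42287439) lies outside the GENCODE span given above. For CISH the stretch is cut to the 193 bases upstream of every annotated transcript and does not reach the RefSeq start at 50611774. Capitals mark a match, on either strand, to TTCNNNGAA (the core that STATs bind), TTCNNNNGAA (the wider spacing that STAT6 prefers) or GAAANNGAAA (the core of the interferon-stimulated response element bound with STAT2), where N is any base.
STAT5A, chr17:42287189-42287438, plus strand: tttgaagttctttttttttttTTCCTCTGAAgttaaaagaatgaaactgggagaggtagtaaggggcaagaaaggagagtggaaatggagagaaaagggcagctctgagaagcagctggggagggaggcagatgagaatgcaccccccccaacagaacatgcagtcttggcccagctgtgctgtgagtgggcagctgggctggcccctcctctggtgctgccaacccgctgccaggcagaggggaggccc
SOCS1, chr16:11256205-11256454, minus strand: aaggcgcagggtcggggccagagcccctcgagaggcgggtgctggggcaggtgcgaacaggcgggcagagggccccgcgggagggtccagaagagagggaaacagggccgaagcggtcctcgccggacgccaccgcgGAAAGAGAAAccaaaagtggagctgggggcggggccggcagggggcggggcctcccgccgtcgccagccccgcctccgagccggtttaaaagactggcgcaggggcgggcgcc
CISH, chr3:50611832-50612024, minus strand: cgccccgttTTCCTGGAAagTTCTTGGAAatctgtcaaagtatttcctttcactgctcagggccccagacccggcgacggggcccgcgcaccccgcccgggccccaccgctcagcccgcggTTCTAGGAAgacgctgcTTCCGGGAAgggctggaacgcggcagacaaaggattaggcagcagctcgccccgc
The STAT5A stretch holds 1 TTCNNNNGAA match and no TTCNNNGAA match, and the windows before the other RefSeq starts of STAT5A, among them the one at 42287547 where the GENCODE span begins, hold none of the motifs. The SOCS1 stretch holds 1 GAAANNGAAA match, which begins 113 bases before the transcript start. The CISH stretch holds 4 TTCNNNGAA matches. Among 35116 windows of 250 upstream bases from 27305 genes, TTCNNNGAA occurs in 6.57%, TTCNNNNGAA in 5.38% and GAAANNGAAA in 3.02%, and only 5 windows hold TTCNNNGAA 4 or more times. Of the 9 members, 8 had windows in the RefSeq table, 14 windows in all, and apart from the matches in STAT5A and SOCS1 none of these windows held the 3 motifs. A match describes the letters of these windows and shows no binding.

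STAT5B (ENSG00000173757, chr17:42199168-42276707, minus strand), the close relative of STAT5A, starts 10.8 kb from it and runs the other way. Its libraries read 44.70, 45.8 and 47.8 CPM in lung-recovered cells, 43.1, 40.8 and 44.66 CPM in ITGB4-low cells, and 61.2 and 61.8 CPM in ITGB4-high cells. The ITGB4-high libraries were the highest, and the lung-recovered libraries stood just above the ITGB4-low ones without overlap. Fitted over all libraries, it differed by a log2 fold change of 0.11 (SE 0.05) for lung-recovered over ITGB4-low, -0.42 (SE 0.06) for lung-recovered over ITGB4-high and -0.52 (SE 0.06) for ITGB4-low over ITGB4-high. So STAT5A differed between lung-recovered and dish cells while its neighbour kept close to the level of the ITGB4-low clone. Per kilobase of exon, STAT5A made up 25.4, 28.3 and 26.1% of the STAT5A and STAT5B level together in the lung-recovered libraries. In the ITGB4-low libraries that share was 0.628, 1.40 and 0.602%, and in the ITGB4-high libraries 1.43 and 0.702%. The coding sequences of this pair are much alike, and how reads that fit both were counted is not given in the sources used here, so both counts are uncertain. STAT5B had 968 to 1272 counts in lung-recovered, 870 to 1110 in ITGB4-low and 1586 to 1623 in ITGB4-high libraries, beside the 5 to 21 counts of STAT5A in the dish libraries. What part of those low STAT5A counts came from shared reads was not tested, and the folds above rest on them.

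**Figure D1:**
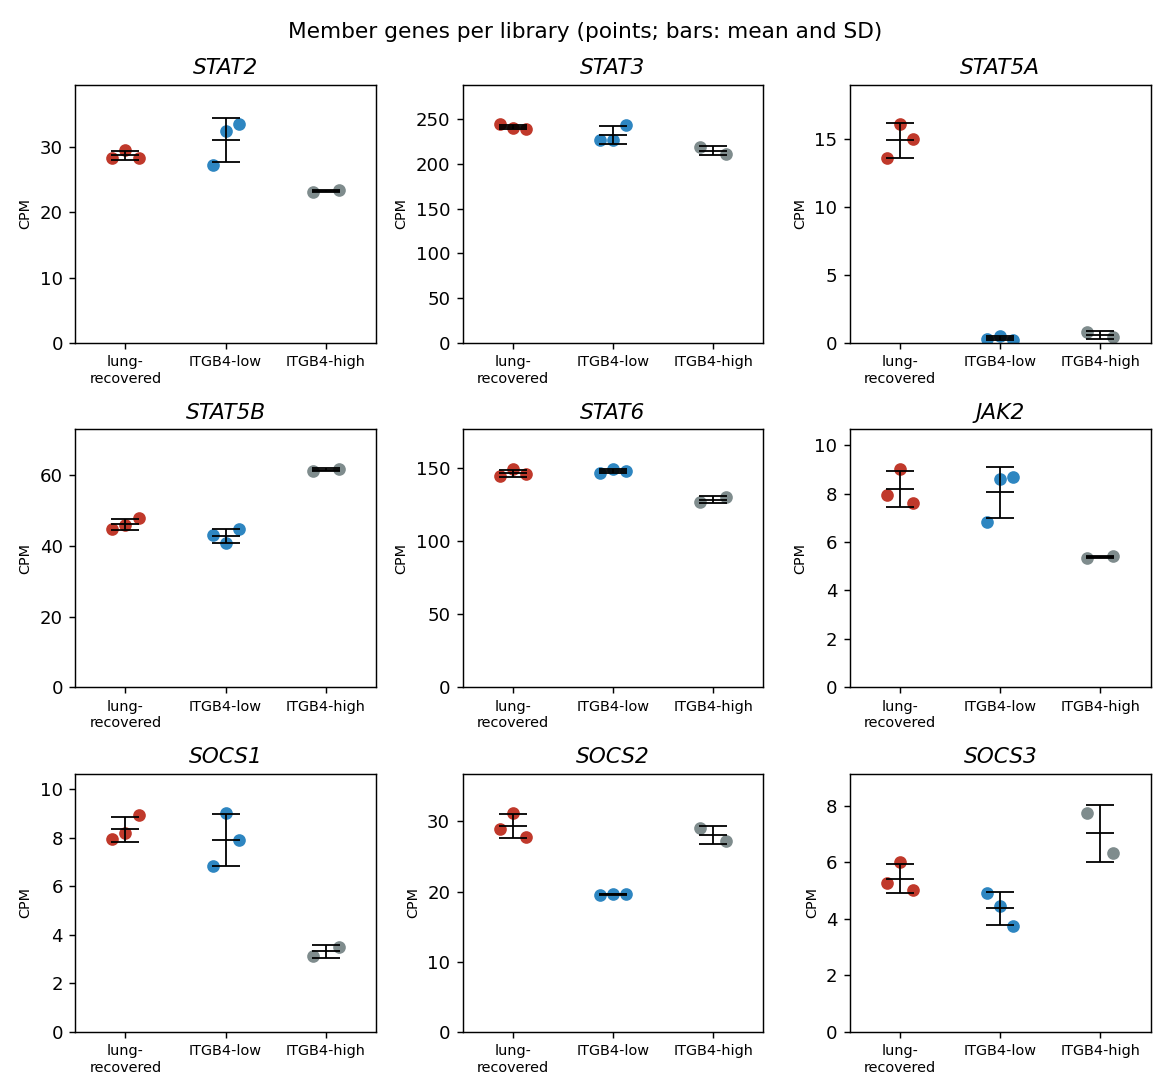
CPM of each of the 9 genes (vertical axis, from 0) in every library of the lung-recovered, ITGB4-low and ITGB4-high groups (horizontal axis); points are libraries and bars show mean and SD. STAT5A stands at 13.6 to 16.1 CPM in the lung-recovered libraries and under 1 CPM in all others, SOCS1 and JAK2 are lowest in the ITGB4-high libraries, and SOCS2 is lowest in the ITGB4-low libraries.

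Most of the other genes around STAT5A were not called different between lung-recovered and ITGB4-low cells. Of 35 tested genes that start within 500 kb, 5 were called higher and 3 lower in lung-recovered than in ITGB4-low cells at an edgeR adjusted p under 0.05, with a median log2 fold change of 0.07. Over all genes tested, 14.7% were called higher and 15.4% lower in that comparison. The nearest tested neighbours were STAT5B on one side and STAT3 on the other, whose start lies 101.0 kb away and whose log2 fold change was 0.05 (SE 0.04). HSD17B1, which encodes an enzyme that makes estradiol from estrone and starts 261.7 kb from STAT5A, was the one neighbour called with a difference of 2-fold or more. It averaged 9.30 CPM in lung-recovered, 1.26 CPM in ITGB4-low and 0.516 CPM in ITGB4-high cells. For lung-recovered over ITGB4-low its log2 fold change was 2.88 (SE 0.16, edgeR adjusted p = 1.89e-11), and for ITGB4-low over ITGB4-high it was 1.27.

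**Figure D2:**
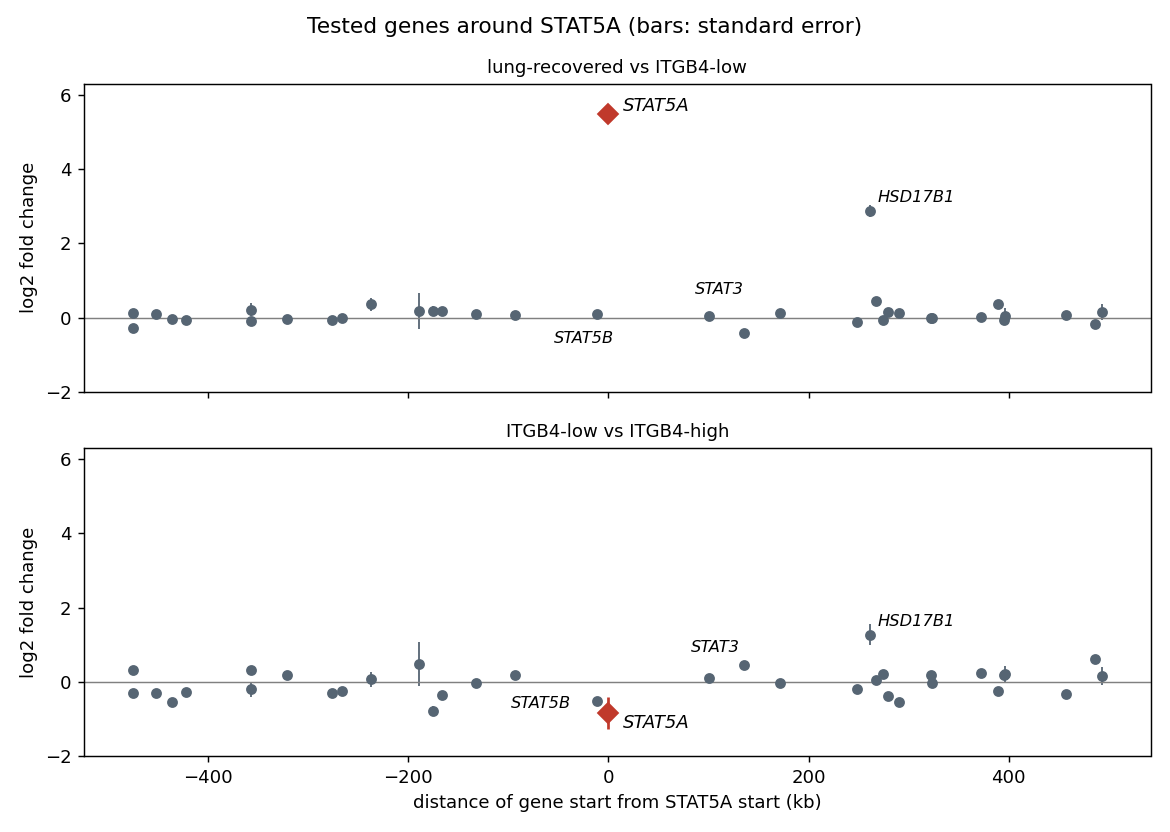
Log2 fold change (vertical axis) of STAT5A (diamond) and of the 35 tested genes that start within 500 kb (points), by the distance of their start from the STAT5A start in kb (horizontal axis), for lung-recovered against ITGB4-low cells (top) and ITGB4-low against ITGB4-high cells (bottom); bars show SE. In the top panel STAT5A at 5.48 and HSD17B1 at 2.88 stand above neighbours whose median is 0.07.

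The genes whose profile over the 8 libraries lay nearest to that of STAT5A all start outside the 500 kb window, and AC087392.1 and DOC2B share its chromosome, 17, with starts 41.4 and 42.1 Mb away. Nearness was the root-mean-square difference between log2 CPM values, each centred on its gene's mean, among 13429 genes with at least 1 CPM on average in a group. The nearest was PLIN4, which encodes a protein that coats lipid droplets, at 0.400, with 6.88 CPM in lung-recovered, 0.136 CPM in ITGB4-low and 0.402 CPM in ITGB4-high cells. The next was AC087392.1 at 0.444, with 2.88 CPM in lung-recovered cells and no count in any dish library. APOE, which encodes the lipid carrier apolipoprotein E, followed at 0.457, with 10.7 CPM in lung-recovered, 0.296 CPM in ITGB4-low and 0.325 CPM in ITGB4-high cells. DOC2B, which encodes a calcium sensor of vesicle release, lay at 0.482, and ATAD3C, of a family of mitochondrial ATPases, at 0.544. Like STAT5A, these genes were under 1 CPM on average in both dish groups. The likeness rests on the step between 3 lung-recovered and 5 dish libraries, which the choice of STAT5A fixes.

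**Figure D3:**
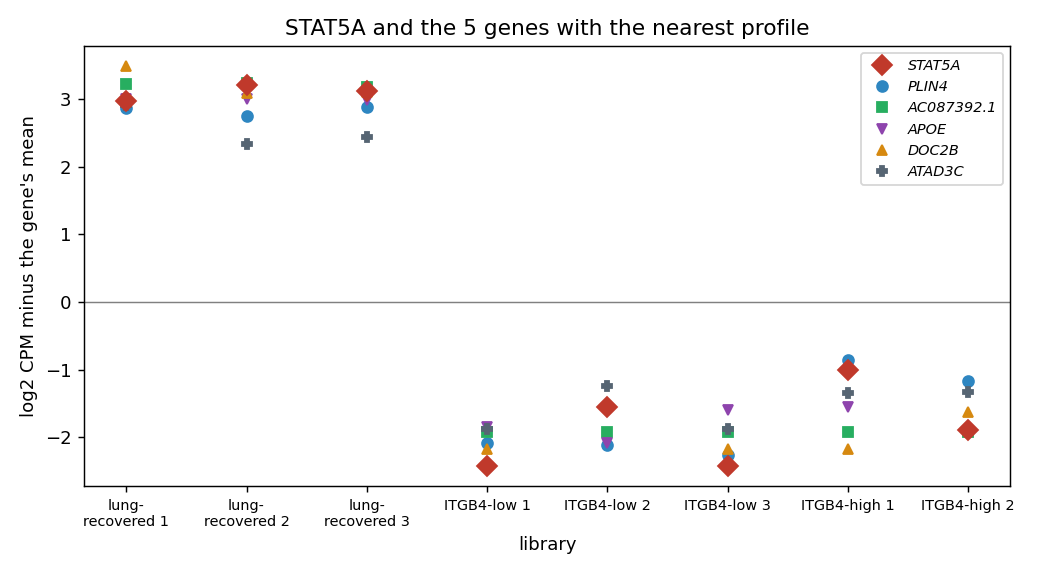
Log2 CPM minus each gene's own mean (vertical axis) in each of the 8 libraries (horizontal axis) for STAT5A (diamonds) and the 5 genes with the nearest profile (other symbols). All 6 genes lie above their mean in the lung-recovered libraries and below it in the ITGB4-low and ITGB4-high libraries.

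Markers of host cells were looked at beside STAT5A, since blood cells express this gene and mouse reads are counted only where they match the human sequence. Of 14 lymphocyte markers, 11, among them CD3E, CD8A and MS4A1, had no count in the lung-recovered libraries, and their sum ran from 0.0946 to 0.294 CPM there, from 0.141 to 0.443 CPM in ITGB4-low and from 0.151 to 0.429 CPM in ITGB4-high libraries. Of 15 macrophage and myeloid markers, 5 had no count in lung-recovered cells, among them SPI1, TYROBP and AIF1. Their sum was 56.3 to 60.3 CPM in lung-recovered, 93.7 to 116.4 CPM in ITGB4-low and 125.4 to 141.1 CPM in ITGB4-high libraries, most of it LAPTM5. Without LAPTM5 it was 8.09 to 9.06 CPM in lung-recovered, 6.44 to 6.85 CPM in ITGB4-low and 3.78 to 4.98 CPM in ITGB4-high libraries. PTPRC, the pan-leukocyte marker CD45, averaged 0.781 CPM in lung-recovered, 0.865 CPM in ITGB4-low and 0 CPM in ITGB4-high cells, so it was read in the clone in dishes as well. MARCO, a scavenger receptor of macrophages, had 1.51, 1.28 and 1.58 CPM in lung-recovered, 0.534, 0.985 and 0.845 CPM in ITGB4-low, and 0.943 and 0.507 CPM in ITGB4-high libraries. It was higher by 0.88 (SE 0.29, edgeR adjusted p = 0.0271) on the log2 scale in lung-recovered than in ITGB4-low cells and by 1.00 (SE 0.32, edgeR adjusted p = 0.0139) than in ITGB4-high cells. ITGAM, another myeloid marker and too low to test, had 18 counts over the lung-recovered, 4 over the ITGB4-low and 10 over the ITGB4-high libraries. ADGRE1 had 41, 21 and 13 counts there. CD68 was higher by 0.86 (SE 0.17, edgeR adjusted p = 2.91e-04) on the log2 scale in lung-recovered than in ITGB4-high cells. Against ITGB4-low cells it was 0.24 (SE 0.15, edgeR adjusted p = 0.228). Of 5 macrophage and myeloid markers tested, 1 was called higher and 1 lower in lung-recovered than in ITGB4-low cells. Against ITGB4-high cells 3 were called higher and 1 lower. For 10 endothelial markers the sum was 25.4 to 27.8 CPM in lung-recovered and 25.9 to 27.1 CPM in ITGB4-low libraries. In ITGB4-high libraries it was 23.9 to 25.5 CPM. The largest part was ERG, which averaged 13.85 CPM in lung-recovered, 10.96 CPM in ITGB4-low and 18.27 CPM in ITGB4-high cells. CLDN5 had no count in any library. VWF had 0 counts over the lung-recovered, 8 over the ITGB4-low and 1 over the ITGB4-high libraries, and PECAM1 25, 10 and 4. PECAM1 was too low to test and read 0.126, 0.804 and 0.188 CPM in the lung-recovered libraries. Of 5 endothelial markers tested, 1 was called higher and 2 lower in lung-recovered than in ITGB4-low cells. Against ITGB4-high cells 2 were called higher and 2 lower. Over all genes tested, 14.7% were called higher and 15.4% lower in lung-recovered than in ITGB4-low cells. Against ITGB4-high cells the shares were 26.2% and 25.0%. The sum of 11 lung epithelial markers was 0.865 to 1.39 CPM in lung-recovered, 1.80 to 2.29 CPM in ITGB4-low and 0.868 to 1.29 CPM in ITGB4-high libraries, with 5 of them at 0 in lung-recovered cells. Among these, SCGB1A1 and FOXJ1 had no count in any library. NKX2-1, of the same list, had 5 counts over the lung-recovered, 69 over the ITGB4-low and 1 over the ITGB4-high libraries. Its log2 fold change was -3.79 (SE 0.53, edgeR adjusted p = 1.38e-05) for lung-recovered over ITGB4-low. For ITGB4-low over ITGB4-high it was 5.41 (SE 0.75, edgeR adjusted p = 4.62e-06). The sum of 11 lung fibroblast and smooth muscle markers was 11.1 to 12.1 CPM in lung-recovered, 14.2 to 17.8 CPM in ITGB4-low and 4.13 to 4.26 CPM in ITGB4-high libraries, most of it PDGFRB. INMT was the only 1 of these 11 at 0 in lung-recovered cells. Over the lung-recovered, ITGB4-low and ITGB4-high libraries, TCF21 had 7, 0 and 9 counts and MFAP4 5, 0 and 2. NPNT had 1, 13 and 0 counts there and DES 1, 14 and 4. Of 3 tested, 0 were called higher and 2 lower in lung-recovered than in ITGB4-low cells. In the tumour-line list, which holds VIM, FN1 and CD44, the sum was 9879 to 10600 CPM in lung-recovered, 13270 to 13640 CPM in ITGB4-low and 8902 to 9340 CPM in ITGB4-high libraries. The part of the few counted host markers in the STAT5A level was not tested.

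STAT3 and STAT6 were the most abundant STATs per length and moved little. STAT3 (ENSG00000168610, chr17:42313324-42388568, minus strand) had 244.3, 240.2 and 239.1 CPM in lung-recovered, 226.4, 226.7 and 243.5 CPM in ITGB4-low, and 218.7 and 211.0 CPM in ITGB4-high libraries. The lung-recovered and ITGB4-low libraries overlapped, and both ITGB4-high libraries were the lowest. The log2 fold change was 0.05 (SE 0.04) for lung-recovered over ITGB4-low, 0.17 (SE 0.05) for lung-recovered over ITGB4-high and 0.11 (SE 0.05) for ITGB4-low over ITGB4-high. The last of these was called, but not with RLE size factors, DESeq2, no filter on low counts, only the 2 groups compared or the replicate block, nor without any single library other than ITGB4-low replicate 1. The difference between lung-recovered and ITGB4-high cells was no longer called without ITGB4-high replicate 2 (log2 fold change 0.13).

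STAT6 (ENSG00000166888, chr12:57095408-57132139, minus strand) had 144.8, 149.4 and 146.3 CPM in lung-recovered, 146.6, 149.8 and 148.5 CPM in ITGB4-low, and 127.0 and 130.3 CPM in ITGB4-high libraries. Lung-recovered and ITGB4-low libraries overlapped and all 6 stood above the ITGB4-high pair. Its log2 fold change was -0.02 (SE 0.04) for lung-recovered over ITGB4-low, 0.19 (SE 0.05) for lung-recovered over ITGB4-high and 0.21 (SE 0.05) for ITGB4-low over ITGB4-high. The span of STAT6 overlaps NAB2 and LRP1 on the opposite strand. LRP1 averaged 28.8 CPM in lung-recovered, 89.6 CPM in ITGB4-low and 30.4 CPM in ITGB4-high cells, a pattern that STAT6 did not share.

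STAT2 (ENSG00000170581, chr12:56341597-56360155, minus strand), which carries the type I interferon signal together with IRF9, had 28.3, 29.6 and 28.4 CPM in lung-recovered, 27.3, 32.5 and 33.5 CPM in ITGB4-low, and 23.1 and 23.4 CPM in ITGB4-high libraries. The ITGB4-high pair was again the lowest, and lung-recovered and ITGB4-low libraries overlapped. Its log2 fold change was -0.12 (SE 0.07) for lung-recovered over ITGB4-low, 0.31 (SE 0.08) for lung-recovered over ITGB4-high and 0.42 (SE 0.08) for ITGB4-low over ITGB4-high. Without ITGB4-low replicate 1, the lowest of its group, the first of these was -0.20 and STAT2 was called lower.

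JAK2 (ENSG00000096968, chr9:4984390-5128183, plus strand), the kinase that serves prolactin, growth hormone and several blood cell receptors, had 7.94, 9.03 and 7.63 CPM in lung-recovered, 6.85, 8.63 and 8.69 CPM in ITGB4-low, and 5.36 and 5.42 CPM in ITGB4-high libraries. Lung-recovered and ITGB4-low libraries overlapped, and both stood above the ITGB4-high pair. In the fit, the log2 fold change was 0.02 (SE 0.12) for lung-recovered over ITGB4-low, 0.60 (SE 0.13) for lung-recovered over ITGB4-high and 0.59 (SE 0.14) for ITGB4-low over ITGB4-high.

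The 3 inhibitors each followed a pattern of its own. SOCS1 (ENSG00000185338, chr16:11254405-11256200, minus strand), which blocks JAK kinases directly and is known as a brake on interferon signalling, had 7.94, 8.18 and 8.91 CPM in lung-recovered, 6.85, 9.003 and 7.89 CPM in ITGB4-low, and 3.13 and 3.51 CPM in ITGB4-high libraries. Every library of the clone, from lung or dish, was at least as high as 6.85 CPM, while neither ITGB4-high library passed 3.51 CPM. Fitted over all libraries, it differed by a log2 fold change of 0.08 (SE 0.12) for lung-recovered over ITGB4-low, 1.33 (SE 0.15) for lung-recovered over ITGB4-high, a 2.52-fold difference, and 1.25 (SE 0.15) for ITGB4-low over ITGB4-high. SOCS1 lies within the span of RMI2 on the opposite strand, and whether the counting used strand is not given in the sources used here.

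SOCS2 (ENSG00000120833, chr12:93569814-93583487, plus strand), known as the brake on growth hormone signalling through STAT5, had 28.95, 31.2 and 27.8 CPM in lung-recovered, 19.5, 19.6 and 19.7 CPM in ITGB4-low, and 29.01 and 27.2 CPM in ITGB4-high libraries. The ITGB4-low libraries were the lowest and lay close together, and the lung-recovered and ITGB4-high libraries overlapped. Its log2 fold change was 0.58 (SE 0.07) for lung-recovered over ITGB4-low, a 1.49-fold difference, 0.06 (SE 0.07) for lung-recovered over ITGB4-high and -0.52 (SE 0.07) for ITGB4-low over ITGB4-high. The first and the last of these share the ITGB4-low libraries. SOCS2-AS1 overlaps SOCS2 on the opposite strand and had 127 counts over all lung-recovered, 90 over all ITGB4-low and 63 over both ITGB4-high libraries.

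SOCS3 (ENSG00000184557, chr17:78356778-78360077, minus strand), the main brake on STAT3 downstream of the IL-6 receptor chain gp130, had 5.25, 6.005 and 5.001 CPM in lung-recovered, 4.91, 4.45 and 3.74 CPM in ITGB4-low, and 7.73 and 6.31 CPM in ITGB4-high libraries. The ITGB4-high libraries were the highest and the ITGB4-low libraries the lowest, and no group overlapped another. In the fit, the log2 fold change was 0.31 (SE 0.14) for lung-recovered over ITGB4-low, -0.38 (SE 0.15) for lung-recovered over ITGB4-high and -0.69 (SE 0.15) for ITGB4-low over ITGB4-high. The call for lung-recovered against ITGB4-high was lost without ITGB4-high replicate 1, lung-recovered replicate 1 or lung-recovered replicate 3, and its log2 fold change lay between -0.53 and -0.23 over all single libraries left out. DESeq2 and the replicate block did not call it either.

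**Figure D4:**
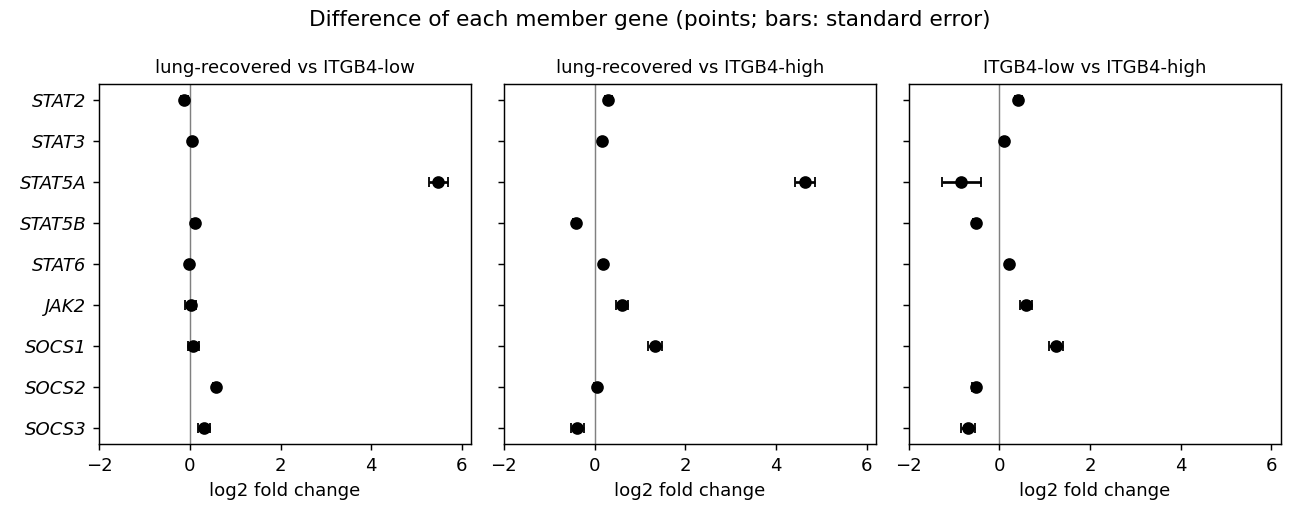
Log2 fold change (horizontal axis) of each of the 9 genes (vertical axis) for lung-recovered against ITGB4-low, lung-recovered against ITGB4-high and ITGB4-low against ITGB4-high cells; points are fitted values and bars show SE. STAT5A stands apart at 5.48 and 4.64 in the panels with lung-recovered cells, and SOCS1 lies at 1.33 and 1.25 in the panels against ITGB4-high cells.

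As a count, 2 of the 9 genes (STAT5A and SOCS2) were called higher and 0 lower in lung-recovered than in ITGB4-low cells by edgeR's quasi-likelihood test at an adjusted p under 0.05, where 30.1% of all genes tested were called (14.7% higher and 15.4% lower). In lung-recovered against ITGB4-high cells 6 were called higher and 2 (STAT5B and SOCS3) lower, where 51.2% of all genes were called (26.2% higher and 25.0% lower). In ITGB4-low against ITGB4-high cells 5 were called higher and 3 (STAT5B, SOCS2 and SOCS3) lower, where 56.2% of all genes were called (28.6% higher and 27.6% lower). Libraries did not overlap for 4, 8 and 8 of the 9 genes in these comparisons, and for 43.3, 66.8 and 68.7% of all genes. The median log2 fold change of the 9 genes was 0.08, 0.19 and 0.11, against 0.000, 0.005 and 0.001 over all genes tested. Since the genes were chosen with such results known, nothing is read from these counts.

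Set per kilobase of exon, so that genes can be compared, STAT3 led in every group at 27.4 in lung-recovered, 26.4 in ITGB4-low and 24.4 CPM per kb in ITGB4-high cells. STAT6 followed at 20.1 in lung-recovered, 20.3 in ITGB4-low and 17.6 CPM per kb in ITGB4-high cells, and STAT5B at 7.15 in lung-recovered, 6.65 in ITGB4-low and 9.54 CPM per kb in ITGB4-high cells. In lung-recovered cells STAT2 (4.63 to 4.84), SOCS1 (4.42 to 4.96) and SOCS2 (4.10 to 4.60) came next, and SOCS1 overlapped both others in CPM per kb. STAT5A (2.37 to 2.80), SOCS3 (1.83 to 2.20) and JAK2 (1.24 to 1.46 CPM per kb) followed there without overlap. In ITGB4-low cells STAT2 and SOCS1 overlapped, and so did SOCS3 (1.37 to 1.79) and JAK2 (1.11 to 1.41 CPM per kb), while STAT5A was last at 0.0420 to 0.0896 CPM per kb. In ITGB4-high cells SOCS2 (4.15), STAT2 (3.81), SOCS3 (2.57), SOCS1 (1.85), JAK2 (0.873) and STAT5A (0.103 CPM per kb) followed STAT5B without overlap between neighbours. SOCS1 thus stood above SOCS3 in the clone and below it in ITGB4-high cells.

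The rest of the pathway was read from 5 lists of 153 genes in all, of which 100 were tested. Of these 100, 36 were called higher and 16 lower in lung-recovered than in ITGB4-low cells, 39 higher and 27 lower in lung-recovered than in ITGB4-high cells, and 37 higher and 35 lower in ITGB4-low than in ITGB4-high cells. The share called was 52.0, 66.0 and 72.0% in these comparisons, beside 30.1, 51.2 and 56.2% of all genes. All adjusted p-values below come from edgeR's quasi-likelihood test, adjusted over all 15220 genes.

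Among the ligands, the cytokines that start the pathway, 11 of 39 were tested. In lung-recovered against ITGB4-low cells 4 were higher (IL6, LIF, EBI3 and CSF3) and 2 lower, with a median log2 fold change of -0.06 beside 0.000 over all genes. Of all genes tested, 30.1% were called in that comparison. CSF3, which encodes the neutrophil growth factor G-CSF, had 14.4, 15.3 and 17.0 CPM in lung-recovered, 0, 0.0469 and 0.161 CPM in ITGB4-low, and 15.4 and 15.3 CPM in ITGB4-high libraries. It was nearly off in the clone in dishes, on 5 counts in all, and at 14.4 CPM or more in every other library. Its log2 fold change was 7.61 (SE 0.25, adjusted p = 8.76e-15) for lung-recovered over ITGB4-low and 0.02 (SE 0.11) for lung-recovered over ITGB4-high. CSF3R, which encodes the G-CSF receptor, had no count in any library. LIF, an IL-6 family cytokine that signals to STAT3, had 9.07, 10.6 and 10.98 CPM in lung-recovered, 3.30, 2.91 and 2.74 CPM in ITGB4-low, and 11.8 and 11.4 CPM in ITGB4-high libraries. It rose by 1.78 (SE 0.12, adjusted p = 8.36e-10) on the log2 scale in lung-recovered over ITGB4-low cells. IL6 had 3.19, 4.397 and 2.90 CPM in lung-recovered, 1.85, 1.27 and 1.29 CPM in ITGB4-low, and 1.28 and 0.857 CPM in ITGB4-high libraries. Its lung-recovered libraries stood above all dish libraries, by 1.25 (SE 0.22, adjusted p = 2.28e-04) on the log2 scale against ITGB4-low and by 1.69 (SE 0.26, adjusted p = 2.05e-05) against ITGB4-high cells.

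TSLP, a cytokine that uses STAT5 through the receptor chain CRLF2, had 3.45 to 4.399 CPM in lung-recovered, 4.52 to 5.67 CPM in ITGB4-low and 1.48 to 1.55 CPM in ITGB4-high libraries. In ITGB4-low against ITGB4-high cells 4 ligands, TSLP among them, were higher and 4 lower (LIF, CLCF1, CSF3 and IL12A), with a median of -0.19. The call of IL12A was lost with DESeq2 (adjusted p = 0.0652) and without ITGB4-high replicate 2 (0.212), ITGB4-low replicate 2 (0.0878) or ITGB4-low replicate 3 (0.0688). In lung-recovered against ITGB4-high cells 5 were higher and 2 lower, with a median of 0.36. Of all genes tested, 51.2% were called in that comparison and 56.2% in ITGB4-low against ITGB4-high cells.

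Of 42 receptor subunits 28 were tested. In lung-recovered against ITGB4-low cells 11 were higher, 3 lower and 14 not called, with a median log2 fold change of 0.13. In lung-recovered against ITGB4-high cells 15 were higher and 4 lower, with a median of 0.33, and in ITGB4-low against ITGB4-high cells 12 were higher and 6 lower, with a median of 0.21. Of all genes tested, 30.1, 51.2 and 56.2% were called in these comparisons. IL7R, the IL-7 receptor chain that uses STAT5, had 12.3, 12.5 and 9.85 CPM in lung-recovered, 2.91, 1.88 and 2.01 CPM in ITGB4-low, and 6.75 and 5.53 CPM in ITGB4-high libraries. Its 3 groups did not overlap, and it was higher by 2.35 (SE 0.16, adjusted p = 4.82e-10) on the log2 scale in lung-recovered than in ITGB4-low cells. IL2RG, the chain that IL7R pairs with to bind IL-7, was too low to test. It had 7 counts over the lung-recovered, 5 over the ITGB4-low and 7 over the ITGB4-high libraries, and JAK3 had no count in any library. IL6R, the chain that binds IL-6, had 18.7, 18.6 and 18.7 CPM in lung-recovered, 11.1, 11.96 and 11.9 CPM in ITGB4-low, and 39.9 and 37.6 CPM in ITGB4-high libraries. It rose by 0.68 (SE 0.07, adjusted p = 3.96e-07) in lung-recovered over ITGB4-low cells and was still lower by -1.06 (SE 0.07, adjusted p = 1.29e-10) on the log2 scale than in ITGB4-high cells. IL4R, which signals to STAT6, had 129.1, 132.6 and 133.3 CPM in lung-recovered, 85.7, 79.6 and 78.3 CPM in ITGB4-low, and 140.8 and 127.6 CPM in ITGB4-high libraries, with a log2 fold change of 0.70 (SE 0.05, adjusted p = 9.82e-10) for lung-recovered over ITGB4-low.

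The signalling chains of the IL-6 family come next. IL6ST, which encodes gp130, had 739.6, 687.3 and 701.2 CPM in lung-recovered, 645.0, 642.5 and 686.0 CPM in ITGB4-low, and 563.8 and 608.0 CPM in ITGB4-high libraries. Its log2 fold change was 0.11 (SE 0.05, adjusted p = 0.0786) for lung-recovered over ITGB4-low and 0.17 (SE 0.05, adjusted p = 8.70e-03) for ITGB4-low over ITGB4-high, where the adjusted p was 0.145 without ITGB4-high replicate 1. For lung-recovered over ITGB4-low it was called with only those 2 groups in the fit (adjusted p = 0.0445) and without ITGB4-high replicate 1 (0.0444) or ITGB4-high replicate 2 (0.0487). OSMR, the oncostatin M chain, averaged 243 CPM in lung-recovered, 251 CPM in ITGB4-low and 156 CPM in ITGB4-high cells and was higher by 0.68 (SE 0.05, adjusted p = 2.21e-10) on the log2 scale in ITGB4-low than in ITGB4-high cells. LIFR, the LIF chain, averaged 54.7 CPM in lung-recovered, 52.8 CPM in ITGB4-low and 51.9 CPM in ITGB4-high cells and was called in no comparison. PRLR, the prolactin receptor, had 1.176, 1.04 and 1.65 CPM in lung-recovered, 2.48, 2.49 and 2.33 CPM in ITGB4-low, and 0.490 and 0.195 CPM in ITGB4-high libraries. It was lower by -0.89 (SE 0.24, adjusted p = 7.06e-03) on the log2 scale in lung-recovered than in ITGB4-low cells. CRLF2, the TSLP receptor chain, averaged 6.67 CPM in lung-recovered, 6.03 CPM in ITGB4-low and 1.03 CPM in ITGB4-high cells. CSF2RA, the GM-CSF chain, averaged 18.1 CPM in lung-recovered, 14.9 CPM in ITGB4-low and 3.25 CPM in ITGB4-high cells. Both were higher in the clone than in ITGB4-high cells, with a log2 fold change for ITGB4-low over ITGB4-high of 2.54 (SE 0.18, adjusted p = 4.14e-10) for CRLF2 and of 2.20 (SE 0.12, adjusted p = 8.35e-12) for CSF2RA. IL31RA, a relative of gp130, was also higher in the clone, with 21.9, 24.1 and 23.8 CPM in lung-recovered, 32.01, 31.0 and 35.4 CPM in ITGB4-low, and 12.4 and 13.5 CPM in ITGB4-high libraries. CSF2RB, the chain that CSF2RA pairs with, was too low to test. It had 0 counts over the lung-recovered, 5 over the ITGB4-low and 0 over the ITGB4-high libraries.

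Of the other kinases, STATs and partners, 9 of 11 were tested. In lung-recovered against ITGB4-low cells 4 were higher and 1 lower (median log2 fold change 0.16), in lung-recovered against ITGB4-high cells 5 higher and 2 lower (median 0.20), and in ITGB4-low against ITGB4-high cells 5 higher and 1 lower (median 0.20). The share of all genes called in these comparisons was 30.1, 51.2 and 56.2%. JAK1, the kinase of the IL-6 and interferon receptors, had 181.2, 170.9 and 172.8 CPM in lung-recovered, 264.1, 265.3 and 270.8 CPM in ITGB4-low, and 216.3 and 207.7 CPM in ITGB4-high libraries. Its 3 groups were apart, with lung-recovered the lowest, by -0.61 (SE 0.04, adjusted p = 5.15e-10) on the log2 scale against ITGB4-low and by -0.28 (SE 0.05, adjusted p = 4.08e-05) against ITGB4-high cells. TYK2, the kinase of the type I interferon and IL-12 receptors, was highest in lung-recovered cells, with 79.7, 82.4 and 80.9 CPM in lung-recovered, 73.1, 71.2 and 66.6 CPM in ITGB4-low, and 62.1 and 59.9 CPM in ITGB4-high libraries. Its log2 fold change was 0.21 (SE 0.05, adjusted p = 2.41e-03) for lung-recovered over ITGB4-low. IRF9, the DNA-binding partner of STAT2, was too low to test at 0.236 to 0.336 CPM in lung-recovered, 0.121 to 0.281 CPM in ITGB4-low and 0.0754 to 0.312 CPM in ITGB4-high libraries.

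Of 24 other brakes on the pathway 22 were tested. In lung-recovered against ITGB4-low cells 3 were higher, 5 lower and 14 not called (median log2 fold change -0.01), where 30.1% of all genes were called. In lung-recovered against ITGB4-high cells 5 were higher and 6 lower (median -0.02), where 51.2% of all genes were called. In ITGB4-low against ITGB4-high cells 9 were higher and 7 lower (median 0.02), where 56.2% of all genes were called. CISH, whose upstream stretch with 4 motif matches is printed above, had 0.756, 0.898 and 1.05 CPM in lung-recovered, 1.21, 0.703 and 1.25 CPM in ITGB4-low, and 1.06 and 0.740 CPM in ITGB4-high libraries. The groups overlapped, with a log2 fold change of -0.23 (SE 0.30, adjusted p = 0.619) for lung-recovered over ITGB4-low. CISH had only 65 counts over the lung-recovered, 71 over the ITGB4-low and 47 over the ITGB4-high libraries. A link between the CISH and STAT5A levels was not tested. SOCS6, which acts on receptor kinases, had 59.4, 61.1 and 51.4 CPM in lung-recovered, 81.0, 76.2 and 72.0 CPM in ITGB4-low, and 39.9 and 44.0 CPM in ITGB4-high libraries. Its 3 groups did not overlap, with a log2 fold change of -0.42 (SE 0.06, adjusted p = 3.61e-05) for lung-recovered over ITGB4-low and 0.86 (SE 0.07, adjusted p = 4.94e-09) for ITGB4-low over ITGB4-high. CUL5, the scaffold of the ubiquitin ligases that SOCS proteins assemble, averaged 26.7 CPM in lung-recovered, 25.4 CPM in ITGB4-low and 57.8 CPM in ITGB4-high cells, lower by -1.19 (SE 0.06, adjusted p = 1.68e-12) on the log2 scale in ITGB4-low than in ITGB4-high cells. USP18, which restrains interferon receptors, averaged 1.49 CPM in lung-recovered, 1.48 CPM in ITGB4-low and 0.516 CPM in ITGB4-high cells and was higher by 1.498 (SE 0.36, adjusted p = 1.52e-03) on the log2 scale in ITGB4-low than in ITGB4-high cells. CBL, a ubiquitin ligase that removes activated receptors, had 185.5, 192.7 and 181.4 CPM in lung-recovered, 247.3, 203.4 and 219.6 CPM in ITGB4-low, and 109.9 and 112.5 CPM in ITGB4-high libraries. It was lower by -0.26 (SE 0.06, adjusted p = 1.11e-03) in lung-recovered than in ITGB4-low cells and higher by 1.01 (SE 0.06, adjusted p = 7.27e-11) in ITGB4-low than in ITGB4-high cells. PIAS2 and PIAS4, which bind STATs and attach SUMO, were both lower in the clone: PIAS2 had 13.2 to 13.95 CPM in lung-recovered, 13.8 to 15.0 CPM in ITGB4-low and 23.9 to 24.1 CPM in ITGB4-high libraries.

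Of 37 genes described as targets of STAT3 or STAT5, 30 were tested. In lung-recovered against ITGB4-low cells 14 were higher and 5 lower, with a median log2 fold change of 0.08, and in lung-recovered against ITGB4-high cells 9 were higher and 13 lower, with a median of -0.11. In ITGB4-low against ITGB4-high cells 7 were higher and 17 lower, with a median of -0.24. Over all genes tested, 14.7% were higher and 15.4% lower in the first of these comparisons. In the second 26.2% were higher and 25.0% lower, and in the last 28.6% and 27.6%. These lists share libraries, and several of their genes also answer to other pathways such as NF-kB. ICAM1, an adhesion molecule for leukocytes, had 195.7, 220.9 and 190.6 CPM in lung-recovered, 27.4, 30.1 and 29.6 CPM in ITGB4-low, and 139.8 and 134.2 CPM in ITGB4-high libraries. Its lung-recovered libraries were the highest, by 2.80 (SE 0.06, adjusted p = 1.10e-17) on the log2 scale against ITGB4-low and by 0.56 (SE 0.06, adjusted p = 1.37e-07) against ITGB4-high cells. SAA1, an acute-phase protein, had 44.7, 40.4 and 44.9 CPM in lung-recovered, 9.13, 15.0 and 14.2 CPM in ITGB4-low, and 77.0 and 77.8 CPM in ITGB4-high libraries, with a log2 fold change of 1.76 (SE 0.10, adjusted p = 6.82e-11) for lung-recovered over ITGB4-low. SAA1 and SAA2 are near-identical copies, so reads between them may be split. JUNB, an early-response transcription factor, had 134.1, 143.9 and 137.3 CPM in lung-recovered, 68.0, 63.5 and 71.0 CPM in ITGB4-low, and 146.7 and 144.4 CPM in ITGB4-high libraries, with a log2 fold change of 1.04 (SE 0.05, adjusted p = 1.88e-12) for lung-recovered over ITGB4-low.

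ID1, an inhibitor of differentiation factors, had 145.3, 168.2 and 144.3 CPM in lung-recovered, 79.4, 81.0 and 79.8 CPM in ITGB4-low, and 256.5 and 239.1 CPM in ITGB4-high libraries. CDKN1A, which encodes the cell cycle inhibitor p21, had 93.1, 89.1 and 86.7 CPM in lung-recovered, 67.3, 64.7 and 66.8 CPM in ITGB4-low, and 137.2 and 131.4 CPM in ITGB4-high libraries. Like SAA1, both were lowest in the ITGB4-low libraries and highest in the ITGB4-high pair, with log2 fold changes for lung-recovered over ITGB4-low of 0.93 (SE 0.06, adjusted p = 7.39e-11) for ID1 and 0.44 (SE 0.05, adjusted p = 3.76e-07) for CDKN1A.

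Other targets did not share that order. PIM1, a survival kinase and a textbook target of STAT3 and STAT5, had 10.3, 9.84 and 9.96 CPM in lung-recovered, 9.96, 12.1 and 14.3 CPM in ITGB4-low, and 21.9 and 22.1 CPM in ITGB4-high libraries. The ITGB4-high pair was the highest, by a log2 fold change of -1.13 (SE 0.11, adjusted p = 3.44e-08) for lung-recovered over ITGB4-high. For lung-recovered over ITGB4-low it was -0.28 (SE 0.11, adjusted p = 0.0507), and -0.40 with an adjusted p of 2.48e-03 without ITGB4-low replicate 1. HIF1A, the oxygen-sensing transcription factor, had 788.5, 789.6 and 770.6 CPM in lung-recovered, 1163, 1011 and 1032 CPM in ITGB4-low, and 594.1 and 578.7 CPM in ITGB4-high libraries, lower by -0.45 (SE 0.05, adjusted p = 4.65e-07) on the log2 scale in lung-recovered than in ITGB4-low cells. BCL3, a partner of NF-kB, had 46.3, 56.9 and 47.6 CPM in lung-recovered, 46.9, 38.6 and 38.6 CPM in ITGB4-low, and 48.1 and 45.6 CPM in ITGB4-high libraries. Its groups overlapped, and the log2 fold change of 0.28 (SE 0.08, adjusted p = 9.76e-03) for lung-recovered over ITGB4-low was no longer called without ITGB4-low replicate 2, ITGB4-low replicate 3 or lung-recovered replicate 2 (adjusted p 0.0549, 0.0658 and 0.0729).

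**Figure D5:**
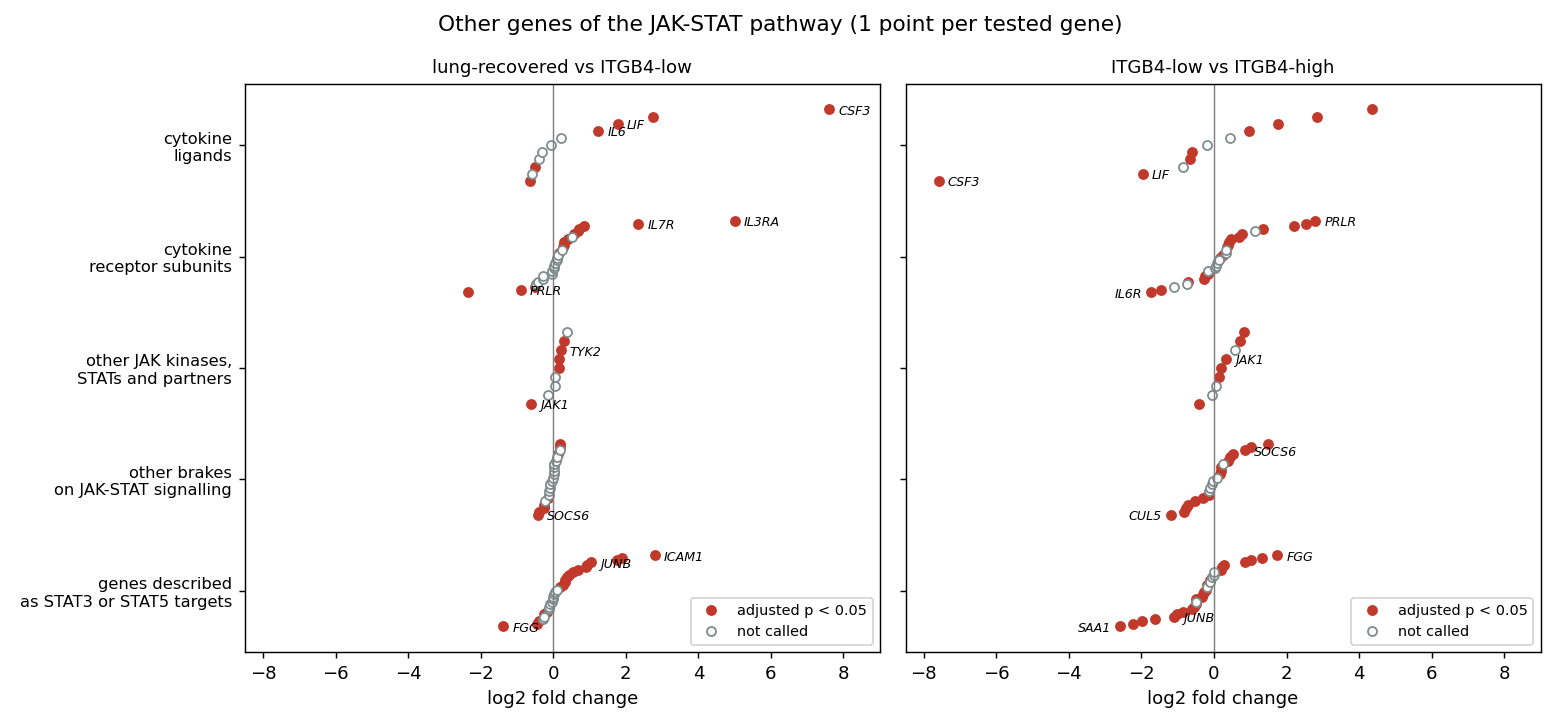
Log2 fold change (horizontal axis) of the 100 tested genes of the 5 pathway lists (rows; within a row the height only spreads the points) for lung-recovered against ITGB4-low cells (left) and ITGB4-low against ITGB4-high cells (right); filled points have an edgeR adjusted p under 0.05. CSF3 lies at 7.61 on the left and at -7.58 on the right, panels that share the ITGB4-low libraries.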

How the data were processed

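The authors deposited raw counts, whole numbers of reads per Ensembl gene with no normalisation, in 1 column per library for 58336 genes. Alignment with STAR 2.7.1a and the build hg38 come from the submitters' processing notes, and per the labels' protocols polyadenylated RNA was made into strand-marked libraries. No source used here names the counting program, its strand setting or its filters. Symbols and coordinates came from GENCODE release 29, which held 58216 of the identifiers. Genes kept by filterByExpr (15220 genes with 99.93% of the counts) were fitted in edgeR 4.0.16 (R 4.3.3) with TMM scaling (factors 0.975 to 1.012) and a term per group over all 8 libraries. The quasi-likelihood F test gave p-values, which were adjusted by Benjamini-Hochberg over all genes tested, and a gene is called where its adjusted p is under 0.05. Each SE is the absolute log2 fold change over the square root of F. Levels are CPM, per library or as mean over 3 lung-recovered, 3 ITGB4-low or 2 ITGB4-high libraries.

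The members, lists, naming rule, tests and alternatives were chosen with earlier results of these data known. The rule named all members, a fixed set of pathway genes, up to 4 called genes per list, direction and comparison with the largest log2 fold change among those with at least 1 CPM in a group, the 5 genes nearest to STAT5A in profile, and genes within 500 kb that were called at 2-fold or more; of the genes so chosen the text describes the larger and better-known ones. Libraries of 1 group differed by more than sampling noise (chi-square over its degrees of freedom 1.60 to 6.58), so each counts as 1 replicate. Per the labels these are biological replicates, with no culture or animal named, so p-values reflect only how these samples spread, which may be technical. Promoter windows came from RefSeq (GRCh38.p14), and motifs were searched on both strands. The fit was tested on simulated data before use. The alternatives were RLE and upper-quartile scaling, DESeq2 1.42.0, limma-voom (limma 3.58.1), no filter on low counts, a fit on only the groups compared, the replicate number as a block, and each library left out in turn. The 3 comparisons share libraries. Some genes of the lists are not reported here by name.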

Additional observations from a re-analysis of the deposited data

How the results depend on the processing

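Of 405 alternative values of the members' log2 fold changes, 398 moved by less than the spread between replicate libraries (1 SD) and 7 by more, and no called value changed sign. The uncalled values of JAK2 (-0.08 to 0.08) and SOCS1 (-0.01 to 0.18) for lung-recovered over ITGB4-low did change sign. STAT5A ran from 5.27 to 5.92 on the log2 scale for lung-recovered over ITGB4-low and from 4.22 to 5.23 over ITGB4-high. For ITGB4-low over ITGB4-high STAT5A gained a call without ITGB4-high replicate 2 or ITGB4-low replicate 2. Of 2610 alternative values of 174 results on named pathway genes, 67 lost the call, 18 gained it and 0 changed direction. With single libraries left out, the genes called ran from 3532 to 4748 for lung-recovered against ITGB4-low, from 6623 to 8145 for lung-recovered against ITGB4-high and from 7400 to 8542 for ITGB4-low against ITGB4-high. The replicate block gave 4146, 7213 and 7990 genes, 2, 7 and 7 of the 9 members, and 49, 65 and 69 of the pathway genes in these comparisons. Same-numbered libraries did not deviate together (correlations of their deviations -0.075 to 0.040), so the numbers are not taken as pairs. Scaling moved the median log2 fold change of all genes to at most 0.024. Depth limits STAT5A in dish cells, CISH and IRF9, where a library held few counts.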

Other observations

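By the measure of nearness used for STAT5A, applied to the other members after their values were seen, the gene nearest to STAT5B was PTPN11 at a root-mean-square difference of 0.022. PTPN11 encodes the phosphatase SHP2, which docks on cytokine receptors, and averaged 370 CPM in lung-recovered, 347 CPM in ITGB4-low and 497 CPM in ITGB4-high cells. DDX58, which encodes the viral RNA sensor RIG-I, lay near JAK2 at 0.049, with 15.6 CPM in lung-recovered, 15.1 CPM in ITGB4-low and 10.2 CPM in ITGB4-high cells. HLA-B, an antigen-presenting molecule, did so at 0.078, with 414 CPM in lung-recovered, 412 CPM in ITGB4-low and 258 CPM in ITGB4-high cells. FSCN1, which encodes the actin bundler fascin, was nearest to SOCS2 at 0.027, with 551 CPM in lung-recovered, 380 CPM in ITGB4-low and 531 CPM in ITGB4-high cells. With 8 libraries in 3 groups and 13429 candidate genes, many genes lie near any profile of this kind.

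Around SOCS1, 7 tested genes start within 500 kb. Among them is LITAF, which encodes a regulator of membrane traffic known for its response to lipopolysaccharide. LITAF had the largest log2 fold change there for lung-recovered over ITGB4-low (1.73) and for ITGB4-low over ITGB4-high (-2.44). For lung-recovered over ITGB4-high it had -0.71, and AC007613.1, at 0.590 CPM on average in lung-recovered cells, had the largest at 1.48. LITAF averaged 104.3 CPM in lung-recovered, 31.4 CPM in ITGB4-low and 170.5 CPM in ITGB4-high cells, while SOCS1 was lowest in ITGB4-high cells. Around STAT6, LRP1 overlaps the member on the opposite strand and had a log2 fold change of -1.64 for lung-recovered over ITGB4-low, where STAT6 had -0.02. IL3RA, the chain that binds IL-3, had 46 counts over the lung-recovered, 1 over the ITGB4-low and 2 over the ITGB4-high libraries. CSF2RB, the chain that IL3RA pairs with, had 0 counts over the lung-recovered, 5 over the ITGB4-low and 0 over the ITGB4-high libraries. Signalling through IL3RA was not tested.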
